A study of Mus musculus with 16 samples.

Results

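The comparison described here sets whole mouse skin at day 1 of sodium dodecyl sulfate (SDS) with Topsym against whole skin of the Topsym arm at day 0. SDS is a detergent that irritates skin and strips its barrier lipids, and Topsym is a brand under which fluocinonide, a potent glucocorticoid for use on skin, is sold. Samples were chosen by their titles: 2 libraries at day 0 with Topsym and 2 at day 1 with Topsym, 4 of the 16 in the series, and all genes entered. The other 12 libraries are day 0 and day 1 of SDS without Topsym and days 3 and 5 of both arms, with 2 libraries in each of 8 groups. All mice were 7 weeks old and were treated on the skin for 4 days per the labels, although the titles run to day 5. No genotype or strain was given, and every title carries SDS, so no group without SDS is named. The labels do not say what the day 0 Topsym mice had received or when each agent began. No label ties a library to its own animal, so p-values here reflect only the spread between libraries of a group, which may be technical.

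Glucocorticoids bind the receptor encoded by Nr3c1, which moves to the nucleus and acts through glucocorticoid response elements in DNA. They are known to induce genes such as Fkbp5 and Tsc22d3, to switch tissues toward the use of fat, to waste muscle through FoxO factors, to thin the dermis by lowering collagen and to curb immune genes. Irritated epidermis in turn is known for cornified envelope precursors, stress keratins and antimicrobial proteins.

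Values are read counts that the authors normalised between libraries, called normalised reads here. Differences are on the scale of log2(normalised reads + 1), which understates the change of low genes, and each comes with its standard error (SE) from limma's moderated test fitted to all 16 libraries. A gene is said to have risen or fallen where its Benjamini-Hochberg adjusted p over 19189 tested genes was under 0.05. The 4 libraries held 20219306 to 27069555 reads, within the range of 15199656 to 32066246 over the series. Defining genes of keratinocytes, fibroblasts, fat, muscle, endothelium and blood were all detected. Adipoq, a hormone made by fat cells, had 602 and 524 normalised reads at day 0 and 1029 and 1097 at day 1. In whole skin, fewer cells of a type and less RNA per cell cannot be told apart.

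The day 0 Topsym libraries differed widely from the day 0 libraries without Topsym, and each gene list below is therefore also set against the latter. Of 56 gene lists, 20 had a summed level in both day 0 Topsym libraries outside the range of all 14 others. The same count was 33 at day 5 with Topsym, 25 at day 3 of SDS alone, 9 at day 0 without Topsym and 0 to 5 in the other 4 groups. Inner root sheath genes, which build the sheath that moulds a growing hair, summed to 28148 and 28429 normalised reads against 3006 to 14230 elsewhere. Interferon response genes summed to 32132 and 32202 against 1976 to 12118. Both lists were thus far above any other library. Fatty acid synthesis genes summed to 43931 and 44277 against 58050 to 102556, and were below any other library. Between the 2 day 0 groups, 2073 genes (10.8% of those tested) were higher with Topsym and 2157 (11.2%) lower. At day 1 the 2 arms differed less, with 1058 genes (5.51%) higher with Topsym and 823 (4.29%) lower. The part of the day 0 difference in each result was not tested beyond the second baseline.

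**Figure D1:**
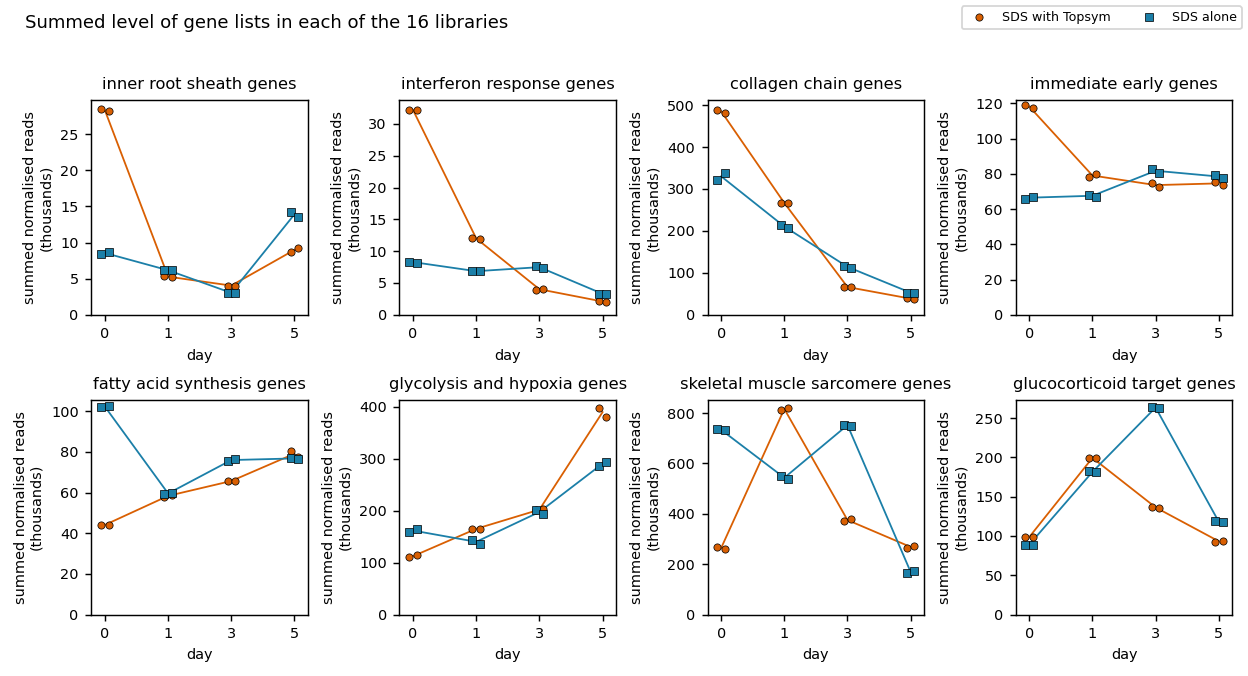
Summed normalised reads (y axes from 0, scale as labelled) of 8 gene lists by day (x axis, in days), with each point 1 library, circles for SDS with Topsym, squares for SDS alone, and lines through the group means. The 2 Topsym libraries of day 0 lie above all others for inner root sheath, interferon, collagen and immediate early genes and below all others for fatty acid synthesis and glycolysis genes, while the glucocorticoid target sum rises from day 0 to day 1 in both arms.

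Between day 0 and day 1 with Topsym, 7830 genes changed, 3901 higher (20.3% of those tested) and 3929 lower (20.5%). The change was at least 2-fold for 1115 of the higher and 1125 of the lower genes, and the median over all tested genes was -0.03. Against day 0 without Topsym, 2984 genes (15.6%) were higher and 2949 (15.4%) lower. Of the 3901 higher genes, 2211 were also higher against that group, 106 were lower and 1584 did not pass. Of the 3929 lower genes, 2204 were also lower, 140 were higher and 1585 did not pass. Both of these comparisons use the same day 1 libraries. The 15 largest rises were those of Ankrd1, Cyp2b23, Mrgprg, Pdk4, Capn11, Serpina3m, Mup17, Plin5, Trim63, Ankrd2, Sprr1b, Xirp1, Acot5, Pck1 and Slc25a34. Capn11 had 2 reads at day 0 (ratio 128, 95% exact counting interval 38.8 to 1170), and Mup17 has near copies in the genome. Mrgprg and Mup17 did not pass against day 0 without Topsym (0.08 and 0.37). The 15 largest falls were all of hair genes: Krt71, Krt25, Krt73, Krt27, Krt72, Krt83, Prr9, Krtap7-1, Krtap8-1, Krt81, Krtap11-1, Krt26, Krt35, Krt28 and Krt87. Against day 0 without Topsym, Krt83 and Krt28 were lower and the other 13 did not pass. The genes with the largest rise against both baselines included Capn11, Pdk4, Ankrd1, Sprr1b, Cyp2b23, Lce3d, Plin5, Serpina3m and Trim63. Those with the largest fall against both included Crabp1, Stra6, Ptn, Ky, Pclaf, Dtl, Exo1 and Slurp2.

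**Figure D2:**
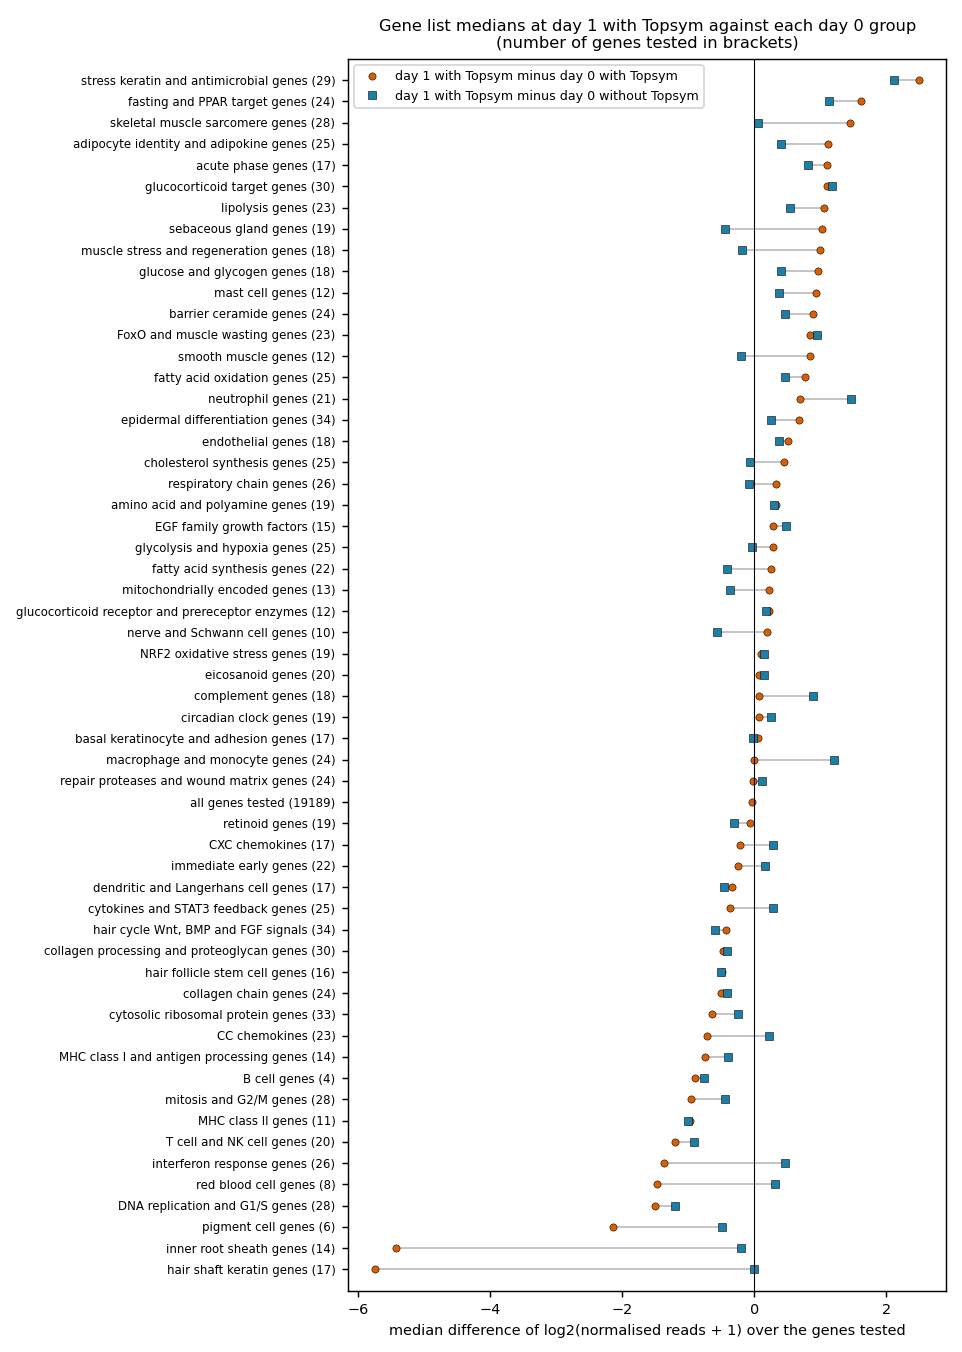
Median difference in log2(normalised reads + 1) (x axis) of each gene list (y axis, number of genes tested in brackets) at day 1 with Topsym, against day 0 with Topsym (circles) and against day 0 without it (squares). Stress keratin, fasting and glucocorticoid target lists lie to the right and DNA replication genes to the left of 0 on both baselines, while inner root sheath and hair shaft lists, at -5.42 and -5.74 with the first baseline, lie at -0.20 and 0.00 with the second.

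Glucocorticoid target genes rose with Topsym at day 1 and did so against either day 0 group. Of 30 tested, 25 rose and 2 fell, with a median of 1.10, beside 20.3% and 20.5% of all genes. Against day 0 without Topsym 28 were higher and 0 lower (median 1.18), and 25 were higher in both. On that baseline 15.6% of all genes were higher and 15.4% lower. The shares of all genes on each baseline are those to set beside every list below. The lists were chosen with earlier results of these data known, so counts past these shares describe the lists and do not test them. Fkbp5, a chaperone that restrains the receptor (chromosome 17, 28399094 to 28517527), had 1724 and 1785 normalised reads at day 0 and 12105 and 12164 at day 1. Both day 1 libraries lay far above the day 0 ones (log2 2.79, SE 0.04, adjusted p = 3.55e-17). Zbtb16, a zinc finger repressor, went from 1170 and 1100 to 4140 and 4196 (log2 1.88, SE 0.07, adjusted p = 1.43e-12). Tsc22d3, the leucine zipper gene GILZ, went from 6243 and 6794 to 12032 and 11926 (log2 0.88, SE 0.05, adjusted p = 9.72e-10). Neither gene's groups overlapped, but such separation was common. Of all 19189 tested genes, 6685 had both day 1 Topsym libraries above both day 0 Topsym ones, and 7360 below. Ddit4, an inhibitor of mTOR signalling, rose by 2.34, Klf9 by 1.58 and the metallothionein gene Mt1 by 1.39 (2.08 against day 0 without Topsym). The members that fell were Dusp1, a phosphatase that is also an immediate early gene (-0.78, but 0.66 against day 0 without Topsym), and Nfkbia, the inhibitor of NF-kappa-B (-0.31, and 0.14 against day 0 without Topsym, which did not pass).

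Sgk1, a kinase induced by corticosteroids, is shown because its promoter alone among the 26 glucocorticoid targets matched to a RefSeq promoter held a full palindromic response element. It had 2861 and 2823 normalised reads at day 0 and 5270 and 5314 at day 1 (log2 0.90, SE 0.05, adjusted p = 2.22e-10). The element searched was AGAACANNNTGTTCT on both strands, in windows from 250 bases before to 50 after each transcript start. It occurred in 3.85% of the targets' promoters and in 0.0111% of those of 27025 genes. The RefSeq sequence of the plus strand at chr10:21993681-21993780 (GRCm38.p6) follows, with the element in capitals.
Sgk1: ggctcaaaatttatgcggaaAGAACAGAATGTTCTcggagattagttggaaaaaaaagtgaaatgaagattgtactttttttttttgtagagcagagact
A match describes the letters only, and the absence of one says nothing of the receptor at the other genes.

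The receptor gene itself fell. Nr3c1 (chromosome 18) had 2770 and 2629 normalised reads at day 0 and 1862 and 1924 at day 1 (log2 -0.51, SE 0.09, adjusted p = 0.000168), and was also lower against day 0 without Topsym (-0.73). Hsd11b1, the enzyme that regenerates active glucocorticoid in tissue, rose from 393 and 375 to 690 and 671 (log2 0.83, SE 0.11, adjusted p = 1.79e-05). H6pd, which supplies that enzyme with NADPH, rose by 1.38. Of the 12 receptor and prereceptor genes tested, 6 rose and 2 fell (median 0.23), against 5 higher and 3 lower on the other baseline (median 0.17).

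Genes of the fasting response and of fat use rose together. Lists share members, so their counts are not independent of each other. Pdk4 is in the glucocorticoid target, fasting and glucose lists, and Plin5 in the fasting and lipolysis lists. Lcn2 is in the glucocorticoid target, neutrophil and acute phase lists. Of 24 fasting and PPAR target genes, 21 rose and 0 fell (median 1.61), and against day 0 without Topsym 15 were higher and 1 lower (median 1.13). Pdk4, a kinase that shuts pyruvate out of the mitochondrion (chromosome 6, 5483351 to 5496309), had 339 and 256 normalised reads at day 0 and 25104 and 25147 at day 1. The groups were far apart (log2 6.41, SE 0.11, adjusted p = 1.45e-16; 5.30 against day 0 without Topsym). Plin5, a lipid droplet protein of oxidative tissues, went from 17.1 and 18.7 to 766 and 792 (log2 5.37, SE 0.26, adjusted p = 6.54e-11; 4.41 on the other baseline). These genes were low in both day 0 libraries and high in both day 1 libraries. Angptl4, which inhibits lipoprotein lipase, rose by 4.12 (3.77 on the other baseline) and the uncoupling protein gene Ucp3 by 4.33 (3.15). Pck1, the gluconeogenic enzyme that also serves glycerol synthesis in fat, rose from 125 and 131 to 3114 and 3097 (log2 4.59, SE 0.22, adjusted p = 8e-11; 3.53 on the other baseline). Cidea, a droplet protein of fat and sebaceous glands, rose by 1.52 but was lower by -0.79 against day 0 without Topsym.

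Lipolysis genes followed, with 16 of 23 higher and 2 lower (median 1.05), and 12 higher and 3 lower on the other baseline (median 0.54). Pnpla2, the main triglyceride lipase (chromosome 7, 141455198 to 141460743), went from 2144 and 2330 to 12794 and 12993 (log2 2.53, SE 0.07, adjusted p = 2.94e-14; 1.89 on the other baseline). Fatty acid oxidation genes rose for 19 of 25 and fell for 1 (median 0.77), and 16 of the 19 also rose on the other baseline. Acadvl, the first dehydrogenase for very long chains, rose by 1.19, and Cpt1a, which admits fatty acids to mitochondria, by 0.77. Glucose and glycogen genes rose for 14 of 18 and fell for 1 (median 0.97), against 10 higher and 3 lower on the other baseline (median 0.40). Irs2, an adaptor of the insulin receptor, rose by 1.48. Adipocyte genes rose for 20 of 25 and fell for 1 (median 1.11), but on the other baseline 11 were higher and 5 lower (median 0.41). Lep, the gene of leptin, had 197 and 183 normalised reads at day 0 and 1011 and 1066 at day 1 (log2 2.45, SE 0.41, adjusted p = 0.000151), and was higher by 1.73 on the other baseline. Adipoq was higher by 0.92 on the first baseline and lower by -0.58 on the second.

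Lipid synthesis depended on the baseline. Fatty acid synthesis genes rose for 12 of 22 and fell for 2 (median 0.26), while against day 0 without Topsym 2 were higher and 14 lower (median -0.42). Scd1, the desaturase that makes oleate, had 10401 and 10769 normalised reads at day 0 with Topsym, 16631 and 16912 at day 1 with Topsym, and 40877 and 39916 at day 0 without Topsym. Its change was thus 0.66 (SE 0.04, adjusted p = 7.92e-10) on the first baseline and -1.27 on the second. Cholesterol synthesis genes rose for 16 of 25 and fell for 0 (median 0.45), against 8 higher and 7 lower on the other baseline (median -0.07). Fdps, which makes farnesyl pyrophosphate, was higher on both, by 1.64 and 0.93. Sebaceous gland genes rose for 17 of 19 and fell for 0 (median 1.02), against 3 higher and 9 lower (median -0.44).

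FoxO and muscle wasting genes rose for 19 of 23 and fell for 0 (median 0.84), and 16 of them also rose against day 0 without Topsym. Trim63, a ubiquitin ligase that marks muscle proteins for breakdown (chromosome 4, 134315120 to 134329629), had 303 and 354 normalised reads at day 0 and 11576 and 11641 at day 1. The difference was far larger than the spread within groups (log2 5.15, SE 0.06, adjusted p = 6.01e-18; 3.97 on the other baseline). Fbxo32, the other muscle ligase atrogin-1, went from 1591 and 1759 to 8319 and 8631 (log2 2.34, SE 0.06, adjusted p = 2.96e-14). Foxo1, a factor that drives both, rose by 0.66. Among muscle stress genes 10 of 18 rose and 3 fell (median 0.99), and on the other baseline 7 were higher and 4 lower (median -0.19). Ankrd1, a stretch-induced titin partner, went from 2.01 and 4.88 to 860 and 866 (log2 7.68, SE 0.22, adjusted p = 1.04e-13), and was higher by 4.86 on the other baseline. Ky, a muscle maintenance gene, fell by -3.38, and by -4.44 on the other baseline.

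Sarcomere genes moved with these lists. Of 28 tested, 24 rose and 0 fell (median 1.45), but against day 0 without Topsym 11 were higher and 7 lower (median 0.05). The list summed to 266883 and 261872 normalised reads at day 0 with Topsym, to 813915 and 818910 at day 1, and to 735860 and 730999 at day 0 without Topsym. The low sum of the day 0 Topsym libraries thus stands beside every muscle and fasting gene of the first baseline, and its part in those results was not tested. Myh4, the fast myosin of white muscle, went from 43075 and 39717 to 160040 and 163800 (log2 1.97, SE 0.06, adjusted p = 1.83e-13; 0.35 on the other baseline).

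**Figure D3:**
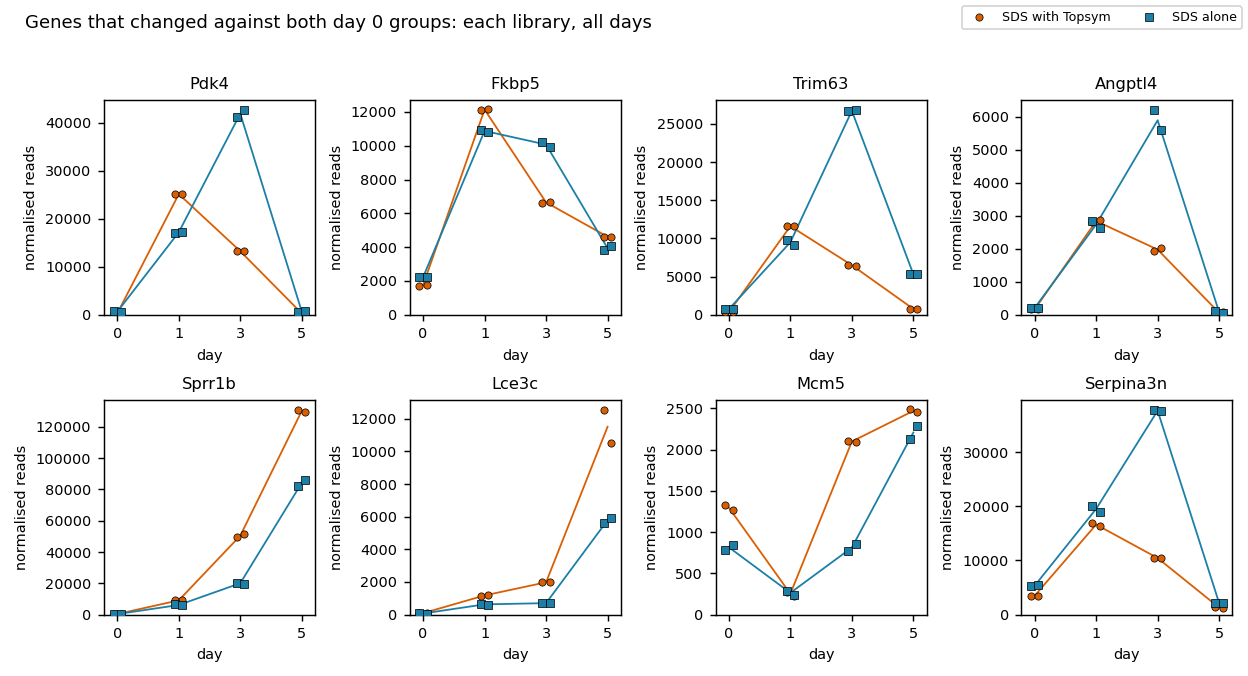
Normalised reads (y axes from 0) of 8 genes by day (x axis, in days), with each point 1 library, circles for SDS with Topsym, squares for SDS alone, and lines through the group means. At day 1 the Topsym libraries lie above both day 0 groups for Pdk4, Fkbp5, Trim63, Angptl4, Sprr1b, Lce3c and Serpina3n and below both for Mcm5.

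Genes known from stressed epidermis mostly rose. Of 29 stress keratin and antimicrobial genes, 24 rose and 3 fell (median 2.50), and the same counts held on the other baseline, with all 27 calls shared (median 2.12). Its median was 2.32 with the 3 members at 0 reads in one group set to their bounds. Sprr1b, a cornified envelope precursor (chromosome 3, 92436809 to 92438789), had 347 and 297 normalised reads at day 0 and 9134 and 9040 at day 1 (log2 4.82, SE 0.06, adjusted p = 8.63e-18; 4.88 on the other baseline). Lce3c, a late envelope protein of stressed epidermis, went from 84.4 and 85.3 to 1151 and 1192 (log2 3.77, SE 0.10, adjusted p = 2.04e-14). The groups of both genes lay far apart. Krt16, a stress keratin, went from 1721 and 1815 to 5002 and 6318 (log2 1.67, SE 0.07, adjusted p = 2.43e-11), and Krt6b, whose reads can be shared with its close copy Krt6a, rose by 2.50 (1.57 on the other baseline). The alarmin gene S100a8 rose by 2.32 (1.65 on the other baseline) and its partner S100a9 by 1.00. Krt17 fell, from 33747 and 34892 to 16253 and 16451 (log2 -1.07, SE 0.05, adjusted p = 1.23e-10). Serpinb3a fell from 15 reads over both day 0 libraries to 0, at least 5.592-fold, and Sprr2a1 from 35 to 2 (ratio 0.0521, 95% exact counting interval 0.00583 to 0.195). Sprr2 and Lce3 genes have close paralogs, between which the counting can split reads.

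Differentiation genes rose for 21 of 34 and fell for 8 (median 0.68), and on the other baseline for 19 and 8 (median 0.26). Hornerin (Hrnr) rose by 2.26 (1.10 on the other baseline) and Tgm1, the transglutaminase that links the envelope, by 1.23. The suprabasal keratin Krt1 fell from 89300 and 83275 to 48655 and 49202 (log2 -0.82, SE 0.05, adjusted p = 2.43e-09), and Krt10, its partner, fell by -0.54. Barrier ceramide genes rose for 21 of 24 and fell for 1 (median 0.89), and on the other baseline for 17 and 4 (median 0.47), with Degs2, which makes phytoceramides, at 2.42. Acer1, a ceramidase of the upper epidermis, fell by -1.33. Basal keratinocyte genes rose for 7 of 17 and fell for 5 (median 0.05), against 7 and 6 (median -0.03). Among 15 EGF family genes 9 rose and 1 fell (median 0.29), against 8 higher and 2 lower (median 0.47). Ereg, epiregulin, went from 432 and 359 to 4628 and 4959 (log2 3.60, SE 0.09, adjusted p = 9.85e-15; 2.65 on the other baseline). Nrg2 fell by -0.88.

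DNA replication genes fell almost as a body. Of 28 tested, 27 fell and 0 rose (median -1.51), and the same 27 fell on the other baseline (median -1.20). Mcm5, a subunit of the replicative helicase (chromosome 8, 75109569 to 75128439), had 1327 and 1266 normalised reads at day 0 and 277 and 227 at day 1 (log2 -2.37, SE 0.10, adjusted p = 8.61e-12; -1.70 on the other baseline). Pclaf, a partner of the sliding clamp PCNA, went from 482 and 462 to 50.7 and 41.0 (log2 -3.34, SE 0.18, adjusted p = 2.2e-10). The day 1 libraries lay below all day 0 libraries for both genes. Ccne1, cyclin E, fell by -2.49. Mitosis genes fell for 21 of 28 and rose for 0 (median -0.97), while on the other baseline 16 were lower and 5 higher (median -0.44). Mki67, the proliferation marker, went from 3169 and 3048 to 1355 and 1260 (log2 -1.25, SE 0.06, adjusted p = 1.29e-10). Ccnb1, cyclin B1, had 169 and 190 at day 0 and 222 and 220 at day 1, a difference of 0.30 that did not pass (adjusted p = 0.0954). The box CCAAT occurred on either strand in 78.3% of 23 mitosis gene promoters against 41.1% of all. This was not particular to mitosis genes, with 94.1% for cholesterol synthesis, 87.5% for MHC class II and 81.2% for clock genes. Most other lists had less.

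Signals of the hair cycle and genes of follicle stem cells fell on both baselines. Hair cycle Wnt, BMP and FGF genes fell for 17 of 34 and rose for 2 (median -0.43), and on the other baseline 17 were lower and 0 higher (median -0.59). Wnt10b, a ligand that starts hair growth, went from 269 and 341 to 93.2 and 79.6 (log2 -1.80, SE 0.31, adjusted p = 0.00018). Lef1, the nuclear partner of beta-catenin, fell by -2.97 (-2.17 on the other baseline) and Fgf18, a signal of the resting follicle, by -2.06 (-2.77). Follicle stem cell genes fell for 8 of 16 and rose for 1 (median -0.49), against 12 lower and 0 higher (median -0.50), with the stem cell marker Cd34 at -1.15. Retinoid genes rose for 6 of 19 and fell for 7 (median -0.07), against 4 higher and 8 lower (median -0.31). Crabp1, a cytosolic binder of retinoic acid found in the dermal papilla, went from 116 and 149 to 1.64 and 9.28 (log2 -4.67, SE 0.56, adjusted p = 4.26e-06), and Stra6, a retinol receptor, from 454 and 419 to 27.0 and 35.6 (log2 -3.77, SE 0.22, adjusted p = 5.44e-10). Both were lower still against day 0 without Topsym, by -5.49 and -4.00.

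The largest falls of all were those of hair keratins, and they rested on the day 0 Topsym libraries. Inner root sheath genes fell for 14 of 14 (median -5.42), but against day 0 without Topsym 4 were lower and 1 higher (median -0.20). Hair shaft genes fell for 15 of 17 and rose for 0 (median -5.74), against 1 lower and 0 higher (median 0.00). With the 8 hair shaft and 3 inner root sheath members at 0 reads at day 1 set to their bounds, the medians were -5.48 and -5.42. Krt71, an inner root sheath keratin (chromosome 15, 101733949 to 101743109), had 5384 and 5910 normalised reads at day 0 with Topsym and 0 in both day 1 libraries. The fall was at least 4732-fold, taking 3 reads over the group as the floor, which covers counting error only. At day 0 without Topsym it had 1.76 and 3.21, so only the 2 day 0 Topsym libraries were high. Krt25, its type I partner, had 3930 and 3733, and then 1.64 and 0 (ratio 0.000213, 95% exact counting interval 2.49e-05 to 0.000744), with 0 in both libraries of day 0 without Topsym. Krt73 went from 591 and 570 to 0 and 0, at least 486.4-fold lower. Tchh, trichohyalin, which hardens the sheath, went from 5401 and 5026 to 173 and 159 (log2 -4.97, SE 0.12, adjusted p = 1.1e-14), and had 233 and 211 at day 0 without Topsym (-0.42).

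The promoters of Krt71, Krt25 and Krt27 are shown because these genes, on 2 chromosomes, were high in the same 2 libraries and near 0 in the other day 0 and day 1 libraries. Each held the letters of a TATA box, searched as TATAAA on both strands. They start 40, 30 and 15 bases before the annotated transcript start of Krt71, Krt25 and Krt27, and whether they act as a box was not tested. The motif occurred in 8 of 12 inner root sheath promoters (66.7%) and 11 of 14 hair shaft promoters (78.6%), against 15.7% of all. The RefSeq sequences (GRCm38.p6) of the minus strand end at or before the transcript start and lie at chr15:101743098-101743197, chr11:99322952-99323051 and chr11:99351119-99351218, with the box in capitals.
Krt71: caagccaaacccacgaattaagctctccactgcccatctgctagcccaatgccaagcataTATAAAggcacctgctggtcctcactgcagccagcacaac
Krt25: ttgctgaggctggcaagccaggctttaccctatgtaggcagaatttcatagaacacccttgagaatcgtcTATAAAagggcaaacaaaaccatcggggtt
Krt27: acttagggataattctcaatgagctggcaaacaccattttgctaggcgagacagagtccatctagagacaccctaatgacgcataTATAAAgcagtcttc
Pigment cell genes, whose products load the growing hair shaft, fell for 5 of 6 and rose for 1 (median -2.14), against 0 lower and 1 higher (median -0.49).

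**Figure D4:**
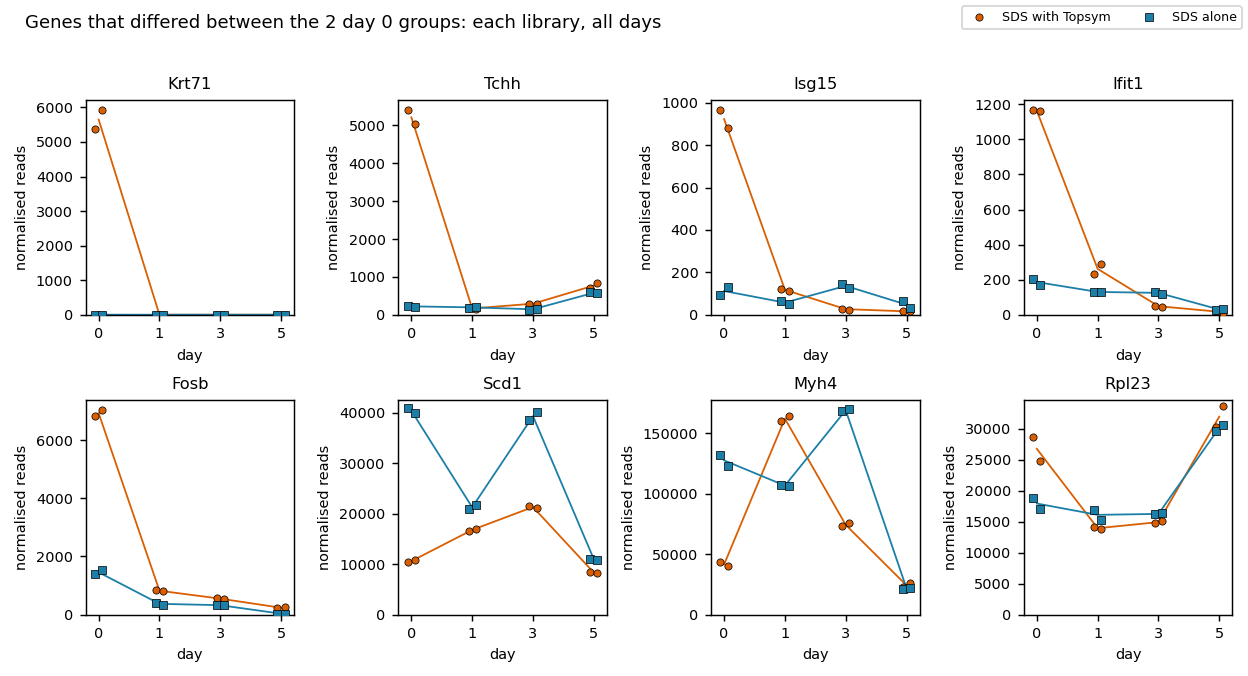
Normalised reads (y axes from 0) of 8 genes by day (x axis, in days), with each point 1 library, circles for SDS with Topsym, squares for SDS alone, and lines through the group means. The 2 day 0 Topsym libraries lie far above the 2 day 0 libraries without Topsym for Krt71, Tchh, Isg15, Ifit1 and Fosb, above them for Rpl23, and below them for Scd1 and Myh4.

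Interferon response genes showed the same dependence. They fell for 25 of 26 and rose for 0 (median -1.37), while on the other baseline 11 were higher and 2 lower (median 0.47), and the 2 that fell on both were Irf1 and Gbp2. Isg15, a ubiquitin-like antiviral protein (chromosome 4, 156199424 to 156200818), had 964 and 881 normalised reads at day 0 with Topsym, 124 and 111 at day 1 and 93.4 and 131 at day 0 without Topsym. Its change was -2.96 (SE 0.32, adjusted p = 1.17e-06) on the first baseline and 0.09 on the second. Ifit1, which binds viral RNA, had 1165 and 1161, then 234 and 289, and 204 and 168 at day 0 without Topsym (log2 -2.16, SE 0.30, adjusted p = 2.09e-05). Ifit3, its partner, had 3405 and 3605, then 834 and 759, and 387 and 340 (log2 -2.14, SE 0.23, adjusted p = 9.7e-07). For Ifit3 the day 1 libraries thus lay between the 2 day 0 groups.

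Promoters of these 3 genes are shown for the element that interferon-activated factors bind, searched as GAAANNGAAA on both strands. It occurred in 13 of 20 interferon response promoters (65%) against 3.99% of all. The RefSeq sequences (GRCm38.p6) lie at chr19:34640765-34640864 (plus strand), chr19:34583353-34583452 (plus strand) and chr4:156200819-156200918 (minus strand), with matches in capitals, and the 3 matches of Isg15 overlap.
Ifit1: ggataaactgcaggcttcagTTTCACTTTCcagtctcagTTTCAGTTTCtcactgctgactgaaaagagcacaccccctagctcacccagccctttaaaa
Ifit3: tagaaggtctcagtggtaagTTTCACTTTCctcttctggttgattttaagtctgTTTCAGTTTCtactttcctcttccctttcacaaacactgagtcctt
Isg15: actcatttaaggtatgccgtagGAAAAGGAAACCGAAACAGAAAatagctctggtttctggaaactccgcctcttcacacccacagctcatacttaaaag

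Antigen presentation fell on both baselines. MHC class II genes fell for 10 of 11 and rose for 0 (median -0.97), and 9 of them also fell against day 0 without Topsym. H2-Ab1, a chain of the class II molecule (chromosome 17, 34257689 to 34269419), had 17525 and 18651 normalised reads at day 0 and 8794 and 8884 at day 1 (log2 -1.03, SE 0.05, adjusted p = 1.89e-10; -1.15 on the other baseline). MHC class I and processing genes fell for 13 of 14 and rose for 0 (median -0.75), and for 10 on the other baseline (median -0.41). Psmb8, an immunoproteasome subunit, went from 1650 and 1626 to 487 and 438 (log2 -1.82, SE 0.10, adjusted p = 5.59e-10; -0.92 on the other baseline). T and NK cell genes fell for 12 of 20 and rose for 0 (median -1.20), and for 8 on the other baseline (median -0.91). Cd3d, of the T cell receptor complex, went from 99.5 and 102 to 8.18 and 25.5 (log2 -2.70, SE 0.67, adjusted p = 0.00388). Without the first day 1 Topsym library Cd3d did not pass (-1.94, adjusted p = 0.0737). Dendritic cell genes fell for 7 of 17 and rose for 1 (median -0.34), against 8 lower and 2 higher (median -0.45), with Xcr1, a receptor of cross-presenting dendritic cells, at -2.99. Of 4 B cell genes tested, Ighm fell, by -1.09, and 2 were lower on the other baseline.

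Innate immune genes went in both directions. Neutrophil genes rose for 10 of 21 and fell for 0 (median 0.69), and for 14 on the other baseline (median 1.46). Lcn2, an iron-scavenging protein of neutrophils and stressed epidermis, went from 126 and 104 to 1251 and 1237 (log2 3.43, SE 0.08, adjusted p = 5.65e-15). Clec4d, a myeloid lectin, went from 6.03 and 10.6 to 73.6 and 65.7 (log2 2.97, SE 0.26, adjusted p = 1.07e-07; 4.37 on the other baseline). The granule genes Ngp, Elane and Prtn3 did not pass, at -0.80, -0.47 and -0.15. Macrophage genes rose for 10 of 24 and fell for 5 (median 0.00), but against day 0 without Topsym 18 were higher and 1 lower (median 1.21). Cd163, the haemoglobin scavenger receptor that glucocorticoids are known to induce, went from 4046 and 3805 to 9661 and 9772 (log2 1.31, SE 0.05, adjusted p = 9.44e-13; 1.76 on the other baseline). Chil3, a chitinase-like protein of myeloid cells, rose by 3.94, and by 6.19 on the other baseline. Fcgr1, a high-affinity antibody receptor, fell by -1.70 but was higher by 1.17 on the other baseline.

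Acute phase genes rose for 9 of 17 and fell for 2 (median 1.11), on the other baseline likewise 9 and 2 (median 0.81). Serpina3n, a protease inhibitor that glucocorticoids are known to raise (chromosome 12, 104406729 to 104414329), went from 3435 and 3522 to 16904 and 16394 (log2 2.26, SE 0.04, adjusted p = 6.42e-16; 1.64 on the other baseline). Saa3, a serum amyloid, went from 28.1 and 30.1 to 404 and 367 (log2 3.68, SE 0.30, adjusted p = 5.01e-08; 4.36 on the other baseline). CC chemokines and receptors fell for 10 of 23 and rose for 3 (median -0.72), while on the other baseline 3 were lower and 6 higher (median 0.22). Cytokine and STAT3 feedback genes fell for 10 of 25 and rose for 6 (median -0.37), against 5 lower and 10 higher (median 0.28). Il1b was lower by -0.56 on the first baseline and at 0.31 on the second. Falls on both baselines included Il33, an alarmin of keratinocytes, at -1.09, and Cxcl9, a T cell attractant, which went from 97.5 and 94.3 to 1.64 and 1.55 (log2 -5.22, SE 0.60, adjusted p = 2.48e-06; -4.28 on the other baseline). Mast cell genes rose for 5 of 12 and fell for 1 (median 0.93), against 4 higher and 1 lower on the other baseline (median 0.37). The tryptase gene Tpsab1 rose by 3.13 (3.78).

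The collagen matrix fell. Of 24 collagen chain genes, 16 fell and 2 rose (median -0.51), and 13 also fell against day 0 without Topsym. Col1a1, the main chain of dermal collagen (chromosome 11, 94936224 to 94953042), had 136250 and 131790 normalised reads at day 0 and 61932 and 61717 at day 1 (log2 -1.12, SE 0.05, adjusted p = 5.91e-11; -0.50 on the other baseline). Col3a1 went from 112700 and 110480 to 42997 and 42888 (log2 -1.38, SE 0.05, adjusted p = 4.62e-13; -0.40 on the other baseline). The sum of the collagen list in the day 0 Topsym libraries exceeded that of all other libraries, so the size of these falls depends on the baseline. The 2 that rose were Col4a1 and Col4a2, of basement membranes, each by 1.00. Processing and proteoglycan genes fell for 20 of 30 and rose for 3 (median -0.48), against 15 lower and 5 higher (median -0.42). Serpinh1, the collagen chaperone, fell by -1.73 and Lum, lumican, by -2.32, both also on the other baseline (-1.40 and -2.41). Has2, a hyaluronan synthase, fell by -2.53. Lox, which cross-links collagen, rose from 1165 and 1019 to 5339 and 5437 (log2 2.30, SE 0.10, adjusted p = 2.73e-11; 2.95 on the other baseline). Repair proteases and wound matrix genes rose for 10 of 24 and fell for 10 (median -0.03), against 11 higher and 8 lower (median 0.11). Endothelial genes rose for 8 of 18 and fell for 1 (median 0.50), against 6 and 1 (median 0.37). Smooth muscle genes rose for 6 of 12 and fell for 2 (median 0.84), against 2 higher and 5 lower on the other baseline (median -0.20).

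Clock genes moved in both directions, with 9 higher and 8 lower of 19 on each baseline. Nr1d1, the repressor REV-ERB alpha, went from 564 and 568 to 3182 and 2975 (log2 2.44, SE 0.06, adjusted p = 1.08e-14). Per3 went from 1034 and 1149 to 366 and 349 (log2 -1.61, SE 0.10, adjusted p = 1.65e-09), and Hlf fell by -1.44, while Arntl, the activator BMAL1, rose by 0.92. The labels do not give the hour at which skin was taken. Immediate early genes fell for 12 of 22 and rose for 6 (median -0.24), and on the other baseline 11 were higher and 4 lower (median 0.16). Fos went from 12475 and 12519 to 3982 and 3896, with 1889 and 1850 at day 0 without Topsym, a change of -1.67 (SE 0.09, adjusted p = 2.37e-10) on the first baseline and 1.07 on the second. Fosb fell on both, by -3.08 and -0.83.

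Ribosomal, mitochondrial, red blood cell and glycolysis lists shifted with the baseline too, while NRF2 genes hardly did. Cytosolic ribosomal protein genes fell for 32 of 33 and rose for 0 (median -0.64), and 25 of them also fell against day 0 without Topsym, by less (median -0.25). Rpl23 went from 28728 and 24767 to 14072 and 13798, with 18867 and 16969 at day 0 without Topsym (log2 -0.94, SE 0.07, adjusted p = 1.5e-08; -0.36 on the other baseline). Respiratory chain genes rose for 15 of 26 and fell for 7 (median 0.33), against 2 higher and 7 lower (median -0.09). Mitochondrially encoded genes rose for 6 of 13 and fell for 0 (median 0.23), against 0 higher and 6 lower (median -0.37). Red blood cell genes fell for 6 of 8 and rose for 0 (median -1.48), against 1 lower and 2 higher (median 0.31). NRF2 genes rose for 8 of 19 and fell for 4 (median 0.10), against 7 and 3 (median 0.14), with Slc7a11, a cystine carrier, at 2.73 and Gpx2, a glutathione peroxidase, at -3.00. Glycolysis and hypoxia genes rose for 15 of 25 and fell for 5 (median 0.28), against 8 higher and 6 lower (median -0.03).

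The change with Topsym was compared with the change of SDS alone over the same day, in which 2449 genes (12.8%) rose and 2588 (13.5%) fell. The arms share no library in this comparison. Of 3667 genes that passed in both arms, 3277 changed in the same direction, 41.9% of the Topsym calls and 65.1% of those of SDS alone. The difference of the changes passed for 3307 genes, with 1761 (9.18%) higher and 1546 (8.06%) lower with Topsym. Of these, 1783 differed between the arms at day 0 and not at day 1, 439 at day 1 and not at day 0, 770 at both and 315 at neither. Among glucocorticoid targets 25 of 30 rose with SDS alone too and 1 fell (median 1.02), and the difference passed for 8 higher and 5 lower (median 0.09). Fkbp5 rose by 2.29 alone and by 2.79 with Topsym, a difference of 0.50 (SE 0.06, adjusted p = 1.32e-05). Pdk4 rose by 4.75 alone, a difference of 1.66 (SE 0.15, adjusted p = 7.49e-07), and its 2 Topsym libraries at day 1, at 25104 and 25147, lay above the 17079 and 17311 of SDS alone. Tsc22d3, Zbtb16 and Sgk1 showed no difference that passed (-0.14, SE 0.07; 0.14, SE 0.09; and 0.08, SE 0.07).

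Stress keratins rose for 24 of 29 with SDS alone (median 2.07), and replication genes fell for 26 of 28 (median -0.98). The fall of replication genes was larger with Topsym for 14 of 28 and smaller for 0. At day 0, 11 of the 28 were higher with Topsym than without and 0 lower (median 0.39). At day 1 itself, 4 were lower with Topsym and 1 higher (median -0.19). MHC class II genes fell for 4 of 11 alone (median -0.35), and the difference passed for 6, all lower with Topsym. At day 1 itself 5 class II genes were lower with Topsym than without and 1, the protease gene Ctss, was higher, with H2-Ab1 at 8794 and 8884 against 15695 and 15164. Interferon genes at day 1 were higher with Topsym for 11 of 26 and lower for 0. Sarcomere genes fell for 25 of 28 alone and rose for 1 (median -0.50), and the difference passed for 28 of 28, all higher with Topsym. Neutrophil genes rose for 10 of 21 in each arm.

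**Figure D5:**
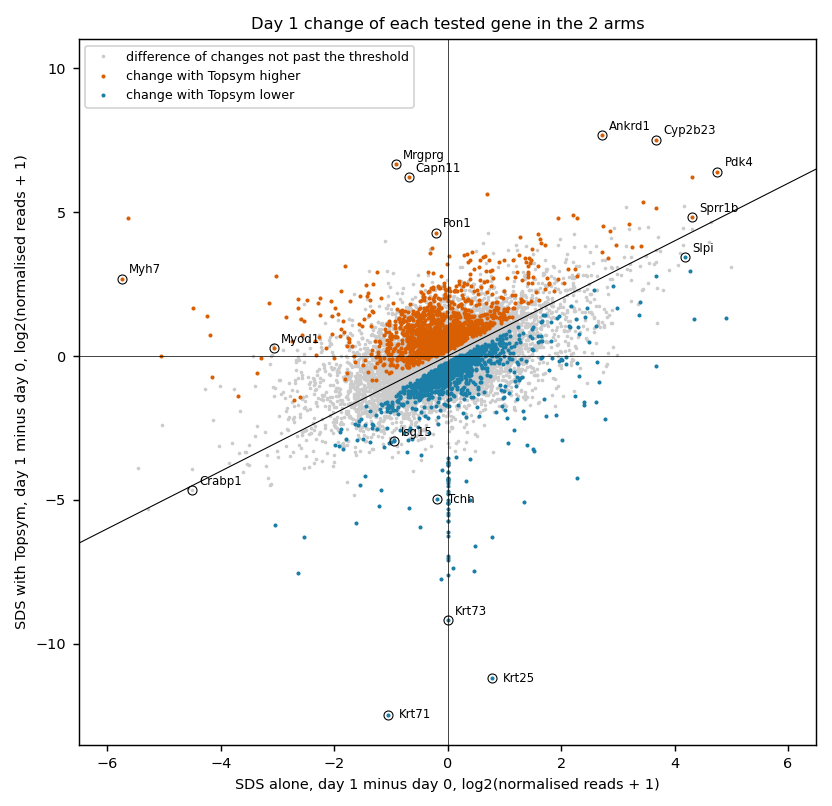
Day 1 minus day 0 difference in log2(normalised reads + 1) of each of 19189 tested genes with SDS alone (x axis) and with Topsym (y axis), coloured where the difference of the 2 changes passed the threshold, with the line of equal change. Krt71, Krt25 and Krt73 lie far below the line and Ankrd1, Capn11 and Myh7 far above it, while Sprr1b and Pdk4 lie high in both arms.

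By days 3 and 5 the early changes had parted. Pdk4 in the Topsym arm averaged 13236 normalised reads at day 3 and 281 at day 5, and Fkbp5 averaged 6647 and 4614. Sprr1b went on from its day 1 level to 50447 and 130230, and Krt16 to 83858 and 313570. Mcm5 was back at 2099 and 2470, above its day 0 level. Col1a1 stood at 2102 and 858, far under its day 1 level. Isg15 stood at 26.5 and 16.1, and Krt71 at 1.15 and 1.60. The Topsym libraries of day 5 differed in make-up from those of day 1. All normalised reads summed to 30655968 and 30161879 at day 5, against 20881145 and 20931182 at day 1. The part of this in the levels above was not tested.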

How the data were processed

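Whole-skin RNA-seq of mice was analysed from the authors' deposited table of normalised counts for 32078 genes in 16 libraries. Per the labels, RNA was extracted with the RNeasy Micro Kit and libraries were stranded. Per the submitters' processing notes, Trim Galore 0.6.7, HISAT2 2.2.1, featureCounts 2.0.3 and DESeq2 2.11.40.8 were used on mm10. Whether counting used strand is not given in the sources. The deposited signal is read counts divided by size factors, and all values came out as whole reads within 1e-04, so depth and read counts were recovered. Among genes with low recovered counts in a library, between 69.9 and 76.8% of those counts were even. Mates may thus have been counted apart, and counting intervals are then too narrow.

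Testing took in genes that reached 10 in 2 or more libraries, with limma 3.58.1 (trend) in R 4.3.3 on log2(value + 1), with 8 groups, 8 residual degrees of freedom and Benjamini-Hochberg adjustment. An exact permutation test of 2 against 2 cannot go below p = 0.3333. On simulated data with few changed genes, all above a minimum level, 52 of 67 changes of 2-fold (77.6%) were recovered. Alternatives were another pseudocount, no filter, TMM factors, a robust prior, a replicate block, fewer libraries, each library left out, edgeR 4.0.16 and DESeq2 1.42.0 on the recovered reads and, added after seeing the data, day 0 without Topsym as baseline. Genes named are the 15 with the largest rise and fall that passed, those against both baselines, and leading list members, of which some are not reported here. Members and the 56 lists were chosen with earlier results of these data known. Promoters came from RefSeq (GRCm38.p6).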

Additional observations from a re-analysis of the deposited data

Results flagged for a closer look

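The day 1 change with Topsym differed from that of SDS alone, by limma's test of the difference, for 1761 genes in the higher and 1546 in the lower direction. The differences of log2 changes that follow passed limma's test in the fit to all libraries. For genes with groups at 0 reads they depend on the pseudocount and are no bounds.

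Among muscle genes the difference was 8.44 for Myh7, the slow myosin, 4.97 for Ankrd1, 3.61 for Myh8, the myosin of newborn muscle, and 3.33 for Myod1, the factor that sets muscle fate. Capn11, a calpain, differed by 6.91 and Mrgprg, a receptor of the Mas-related family, by 7.57. Pon1, an esterase, differed by 4.49 and the cytochrome Cyp2b23 by 3.84. Mup10 differed by 10.44 and Mup17 by 4.93, in a family of near-identical copies. Mup10 had 442 and 0.77 normalised reads in the 2 day 1 Topsym libraries and 0.88 and 1300 in those of day 0 without Topsym, so its value rests on single libraries, and it did not pass without the first day 1 Topsym library (adjusted p = 0.2044) or the second day 0 library without Topsym (adjusted p = 0.1844).

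Hair genes differed the other way. The difference was -11.98 for Krt25, -11.4 for Krt71, -9.18 for Krt73, -7.64 for Krt27 and -7.62 for Krt72, all inner root sheath keratins. It was -7.94 for Prr9, -7.08 for Krtap7-1, -7.07 for Krtap11-1, -7.03 for Krtap8-1 and -6.95 for Krt81. The difference did not pass in edgeR for Krt73, Krt72, Krtap7-1, Krtap8-1 and Krt81 (adjusted p = 0.9999 each), nor in DESeq2 for Krt25, Krt73, Krt72 and Krtap8-1 (adjusted p = 0.1472 to 0.4542). Krt71, Krt25 and Krt73 were at or near 0 in both day 0 libraries without Topsym, and the high values were those of the day 0 Topsym libraries.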

How the results depend on the processing

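No alternative other than the added baseline turned a direction. The 3901 higher and 3929 lower genes became 1115 and 1125 when a log2 change of at least 1 was also required, and the 1761 and 1546 differences between arms became 618 and 289. With each library left out in turn, the counts were 3026 to 3324, 2968 to 3086, 1317 to 1584 and 1014 to 1396, with the lowest, 1014, without the first day 1 library of SDS alone. edgeR called 4133 and 4594 genes, DESeq2 4127 and 4338. In DESeq2 the day 1 falls with Topsym of Krt73, Krt72 and Krtap8-1 did not pass (adjusted p = 0.09171, 0.1521 and 0.179). Nor did the rise of mt-Nd5 (adjusted p = 0.05767). In edgeR no named gene lost its call for the day 1 change with Topsym. Replicate numbers showed no pairing of day 0 with day 1 within an arm (correlation of same-numbered deviations 0.0165 with Topsym and -0.0313 without). For the more abundant genes these values were 0.0292 and -0.1302. Pairing across arms or with later days was not checked. A replicate block gave 3852 and 3864, and 1718 and 1496 for the difference.

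Against day 0 without Topsym, 32 named genes had the opposite sign, and the cause was not tested. They were, in hair and pigment, Krt25 (0.70), Krt27 (0.36), Krtap7-1 (0.67), Krtap11-1 (0.41) and Pmel (0.0823). In lipid and retinoid genes they were Mlxipl (-0.31), Scd1 (-1.27), Elovl5 (-0.57), Cidea (-0.79), Awat1 (-0.72) and Aldh1a2 (0.49). In immune and early genes they were Ly6c2 (0.85), Fcgr1 (1.17), Isg15 (0.0857), Ifit3b (0.0242), Ifit1 (0.49), Ifit3 (1.13), Fos (1.07) and Il1b (0.31). In blood they were Hba-a2 (0.22), Hba-a1 (0.38), Hbb-bt (0.48) and Hbb-bs (0.24). In muscle, nerve and mitochondria they were Synpo2 (-0.43), Prx (-0.0217), Cox6a2 (-0.0755), Cox8b (-0.21), Cox7a1 (-0.30), mt-Nd4l (-0.0166), mt-Nd2 (-0.37), mt-Nd5 (-0.36) and mt-Co1 (-0.22). With 2 libraries a group, 52.2% of simulated 1.5-fold changes were recovered, so smaller changes may be missed.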

Other observations

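Further gene groups were measured at day 1 with Topsym against day 0 with Topsym. Of all tested genes 20.3% rose and 20.5% fell, and 15.6% were higher and 15.4% lower against day 0 without Topsym. Amino acid and polyamine genes rose for 10 of 19 and fell for 2 (median 0.33), and 9 of the rises also passed against day 0 without Topsym. They were led by Tat, tyrosine aminotransferase, with 2 reads at day 0 and 39 at day 1 (ratio 19.2, 95% exact counting interval 4.42 to 146), and Glul, glutamine synthetase, at 1.35. Complement genes rose for 5 of 18 and fell for 2 (median 0.08), while on the other baseline 10 were higher and 3 lower (median 0.89). C7, a part of the membrane attack complex, was higher on both, by 1.74 and 2.86.

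CXC chemokine and receptor genes rose for 4 of 17 and fell for 6 (median -0.22), while on the other baseline 5 were higher and 4 lower (median 0.29). Cxcl12, which holds leukocytes in tissue, fell by -1.20. Eicosanoid genes rose for 3 of 20 and fell for 5 (median 0.08), while on the other baseline 8 were higher and 4 lower (median 0.15). On the first baseline these counts lie near the shares of all genes. The epidermal lipoxygenase genes Alox8 and Alox12e fell by -2.76 and -2.58, and Hpgd, which breaks down prostaglandins, rose by 1.45. Nerve and Schwann cell genes rose for 3 of 10 and fell for 2 (median 0.18), with 0 higher and 3 lower on the other baseline (median -0.57).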
